A study of Sus scrofa with 31 samples.

Results

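Gene expression in whole blood was compared between fetuses and 12-week-old animals of the Clawn miniature pig, a small pig breed kept for biomedical research. The comparison used 16 of the 31 arrays of the series, 8 from fetuses and 8 from pigs of 12 weeks, chosen by their sample titles. Each age comprised 4 males and 4 females, every array was labeled as a separate animal, and neither a treatment nor an engineered allele was named for any of them. The study described its pigs as healthy and specific pathogen-free and took the fetuses by Caesarean section before term. It drew all blood into PAXgene tubes and removed no globin RNA. Litters were not given, so the fetal arrays may include littermates. The array held 43603 probes, of which 3334 could be given a gene symbol (2028 different symbols) and 6684 a symbol or a usable description.

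Before birth, blood formation takes place largely in the liver, and fetal blood is rich in red cells, many of them young and some still with a nucleus. After birth the marrow takes over, and the leukocytes meet microbes for the first time. Neutrophils and monocytes are the innate cells that take up and kill microbes, T and B lymphocytes carry receptors for particular antigens, and MHC molecules, called SLA in the pig, present peptides to T cells. In a sample of whole blood, fewer cells of a type and less RNA per cell cannot be told apart.

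Signal is given throughout as the log2 of the quantile-normalized probe intensity, and a change as the 12-week mean minus the fetal mean on that scale. Presence on an array meant that the scanner software had marked a probe both as positive and significant and as well above background. Presence on over 75% of the 8 arrays of an age made the probe expressed at that age. Between 5678 and 12776 probes were present on the fetal arrays, and between 13428 and 20731 on the 12-week arrays. The fetal arrays were also dimmer. Before normalization the 75th percentile of their linear signal was 3.60 to 17.99, against 20.27 to 96.57 at 12 weeks. How far this brightness bears on which probes counted as present was not tested. The fetal arrays also varied more, with a median SD per tested probe of 1.04 against 0.645 at 12 weeks. Slides never held both ages, and 1 of 3 scan days did: the 4 fetal females and 4 of the 12-week pigs were scanned on day 2, the other 12-week pigs on day 1 and the fetal males on day 3. Fetal male 2 stood apart by its signal for liver genes. It had log2 signals of 15.98 and 14.31 for the probes of ALB, serum albumin, and no other fetus was above 8.94 for the first of them. For some genes that were high on this array, the change is also given without it.

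Altogether, 13644 probes were expressed at 1 or both ages and were tested with limma. At an adjusted p under 0.05, 8611 of them changed, 63.1% of those tested. Of these, 5623 were higher at 12 weeks, 41.2% of the tested probes, and 2988 were lower, 21.9%. The median change over all tested probes was 0.66, and it was 0.45 when the arrays were scaled to their 75th percentile. The filter bears on this balance, since 7927 of the tested probes were expressed at 12 weeks only and 127 at the fetal stage only. Of the former 55.9% rose and 7.53% fell, and of the latter 99.2% fell. Among the 5590 probes expressed at both ages, 21.3% rose and 40.5% fell, and their median change was -0.51. Of all calls 65.3% were higher at 12 weeks, which became 33.7% when testing was limited to the 4258 probes present on all 16 arrays. The values of the 2 ages did not overlap for 18% of tested probes, 13.1% higher and 4.93% lower at 12 weeks. Of the 3049 tested probes with a name or description, 36% rose and 21.4% fell. After 75th percentile scaling 39% of tested probes rose and 27.4% fell, and on scan day 2 alone 36.1% and 19.5%. These percentages are the background for the counts of genes that follow. Of the 139 tested probes of named genes, 75th percentile scaling lowered the change of 53 by over 1.5-fold, by 0.59 to 2.13 on the log2 scale, and turned the direction of none.

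Genes of red cell formation were lower at 12 weeks. EPOR, the receptor through which erythropoietin keeps red cell precursors alive, had log2 signals between 7.25 and 10.43 in the fetuses, with a median of 9.29. At 12 weeks its signals lay between 2.43 and 3.63, and the probe was well above background on none of the 8 arrays. Mean signals were 9.11 ± 0.94 (SD, n = 8) and 2.93 ± 0.40 (SD, n = 8), which makes EPOR at least 48.9-fold lower at 12 weeks (limma, adjusted p = 2.1e-09). All 8 fetal values lay above all 8 values of the older pigs.

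The embryonic globin HBE1 was present on every array of both ages. Its signals ran from 15.29 to 16.19 with a median of 15.71 in the fetuses and from 13.80 to 15.01 with a median of 14.23 at 12 weeks, without overlap. The fall was 2.66-fold (log2 change -1.41 ± 0.26 SE, adjusted p = 0.000188), and its 3 tested probes fell by 1.41 to 1.5. After 75th percentile scaling the change was -2.63. Globin genes of the beta cluster resemble each other closely, so how much of this signal came from HBE1 itself is uncertain. The sequence of the HBE1 probe that fell by 1.45 is shown for that reason, as the array design gives it; its genome position was not determined.
HBE1 A_72_P223877: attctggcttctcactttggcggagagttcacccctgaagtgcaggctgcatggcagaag
The probe named for the alpha globin HBA was present on 0 arrays of either age, and no probe was named HBB.

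Of the 8 genes on the array from a list of red cell membrane proteins and enzymes, 6 were tested, 5 fell and none rose. The median change of the list was -2.15, against 0.66 over all tested probes. All 5 genes that fell were expressed at both ages, where 40.5% of probes fell. ANK1, ankyrin, which ties the red cell skeleton to its membrane, had fetal signals of 8.18 to 12.70 (median 10.01) and 12-week signals of 4.73 to 8.04 (median 6.95). It fell 16.2-fold (adjusted p = 4.53e-05) with no overlap between the ages. The glucose transporter SLC2A1 fell 5.44-fold, the hydrogen peroxide-degrading enzyme CAT 5.16-fold, the blood group protein RHCE 3.81-fold and the water channel AQP1 3.23-fold. SLC2A3 changed by -0.76 and did not pass the test (adjusted p = 0.346).

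Of the transcription factors of red cell development, 3 were tested. SOX6, which takes part in silencing embryonic globin, fell 9.02-fold, from 8.39 ± 0.39 to 5.22 ± 1.19 (SD, n = 8 each). LDB1, a partner of GATA1, fell 2.04-fold and KLF3, a repressor, rose 2.26-fold, but neither passed the test on scan day 2 alone (adjusted p = 0.29 and 0.27). LDB1 also lost its call without the 3 fetal arrays with the fewest present probes (adjusted p = 0.052). The same held when 1 of several single arrays was left out (adjusted p up to 0.083).

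Of the genes of iron handling, reticulocyte maturation and erythropoietin signaling, 10 were tested, of which 5 fell and 1 rose, with a median change of -0.87. Of the 7 expressed at both ages, 4 fell. Besides EPOR, the falls were in HAMP, the iron hormone hepcidin (4.6-fold), NCOA4, the receptor for ferritin breakdown (3.44-fold), FOXO3 (3.29-fold) and the heme-degrading HMOX1 (3-fold). The number that fell was 8 after 75th percentile scaling and 3 on scan day 2, where NCOA4 missed the threshold (adjusted p = 0.058). The change of HAMP was -1.97 in place of -2.20 without fetal male 2. JAK2, the kinase bound to the erythropoietin receptor, went the other way. It was well above background on no fetal array and on all 8 arrays at 12 weeks, at least 1.85-fold higher (means 3.22 and 6.59, adjusted p = 0.000283). The ferritin chains FTH1 and FTL changed by 0.20 and -0.01 and did not pass the test.

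Among named genes whose ages did not overlap, the largest fall was in IGF2, the growth factor of fetal life. The probe concerned had fetal signals of 7.27 to 10.88 (median 9.27) and 12-week signals of 1.31 to 3.35 (median 1.87). It was present on all 8 fetal arrays and on none at 12 weeks, at least 55.5-fold lower (means 9.28 ± 1.11 and 2.15 ± 0.87 SD, adjusted p = 5.78e-09). Other probes of IGF2 fell less. The 5 tested probes fell by 7.13, 5.50, 1.88, 1.85 and 1.04 on the log2 scale, and the probe with the smallest fall missed the threshold on scan day 2 alone (adjusted p = 0.13). The 2 probes shown overlap by 38 bases, marked in capitals, and are printed because they read nearly the same stretch of IGF2.
IGF2 A_72_P414443: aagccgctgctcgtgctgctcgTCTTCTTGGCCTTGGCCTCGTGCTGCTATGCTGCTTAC
IGF2 A_72_P055876: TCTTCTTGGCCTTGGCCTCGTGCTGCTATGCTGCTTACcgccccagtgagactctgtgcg
The first of them had means of 11.13 ± 0.68 in the fetuses and 10.09 ± 1.05 at 12 weeks, and the other 7.99 ± 0.58 and 6.11 ± 1.21 (SD, n = 8).

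Related genes moved in both directions. IGF1 fell 4.53-fold, from fetal signals of 8.34 to 10.01 to 12-week signals of 5.24 to 8.27, without overlap. IGFBP2, a binding protein for these growth factors, fell 5.34-fold, and its change was -1.93 in place of -2.42 without fetal male 2. IGFBP1 rose 3.08-fold (adjusted p = 0.00926). In the family of growth hormone and insulin-like growth factor genes, 5 were tested, 4 fell and 1 rose.

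Several of the largest falls were in genes known from muscle and connective tissue, but the families of such genes were divided. Of 18 tested genes of myosins, actins and troponins 7 fell and 6 rose, with a median change of -0.16. Of 3 tested collagens 2 fell and 1 rose. TNNI1, the troponin I of slow skeletal muscle, had fetal signals of 8.86 to 10.71 (median 9.82) and 12-week signals of 1.92 to 4.40 (median 2.90). It fell 101-fold (adjusted p = 2.01e-09), and 3 of the 8 arrays at 12 weeks measured it above background. DES, the muscle filament protein desmin, went from 9.92 ± 0.63 to 5.83 ± 0.64 (SD, n = 8), a 17-fold fall without overlap, while its other probe fell by 0.94 on the log2 scale. SPARC, a matrix protein also stored in platelets, fell by 5.20 to 5.99 on the log2 scale on its 3 probes. DCN, the proteoglycan decorin, fell by 5.93 on a probe that 2 of the 12-week arrays measured above background, and by 2.19 on another that all of them did.

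TPM1, tropomyosin, illustrates how far probes of 1 gene can part. Its 5 tested probes fell by 5.92, 5.48, 5.28, 3.41 and 1.64. The probe that fell by 1.64 went from 8.07 ± 0.62 to 6.43 ± 0.55, and the one that fell by 5.48 from 7.74 ± 0.88 to 2.26 ± 0.87 (SD, n = 8). The gene is spliced into many forms in muscle and other cells, and which forms these probes read was not determined. The 3 TPM1 probes shown were picked for their unequal falls of 5.48, 3.41 and 1.64, in that order. The first and the next share 14 bases, in capitals.
TPM1 A_72_P179531: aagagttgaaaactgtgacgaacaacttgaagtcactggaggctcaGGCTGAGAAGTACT
TPM1 A_72_P108241: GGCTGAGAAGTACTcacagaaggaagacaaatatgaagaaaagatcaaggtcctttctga
TPM1 A_72_P087806: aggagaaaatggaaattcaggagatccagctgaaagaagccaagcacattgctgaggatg

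**Figure D1:**
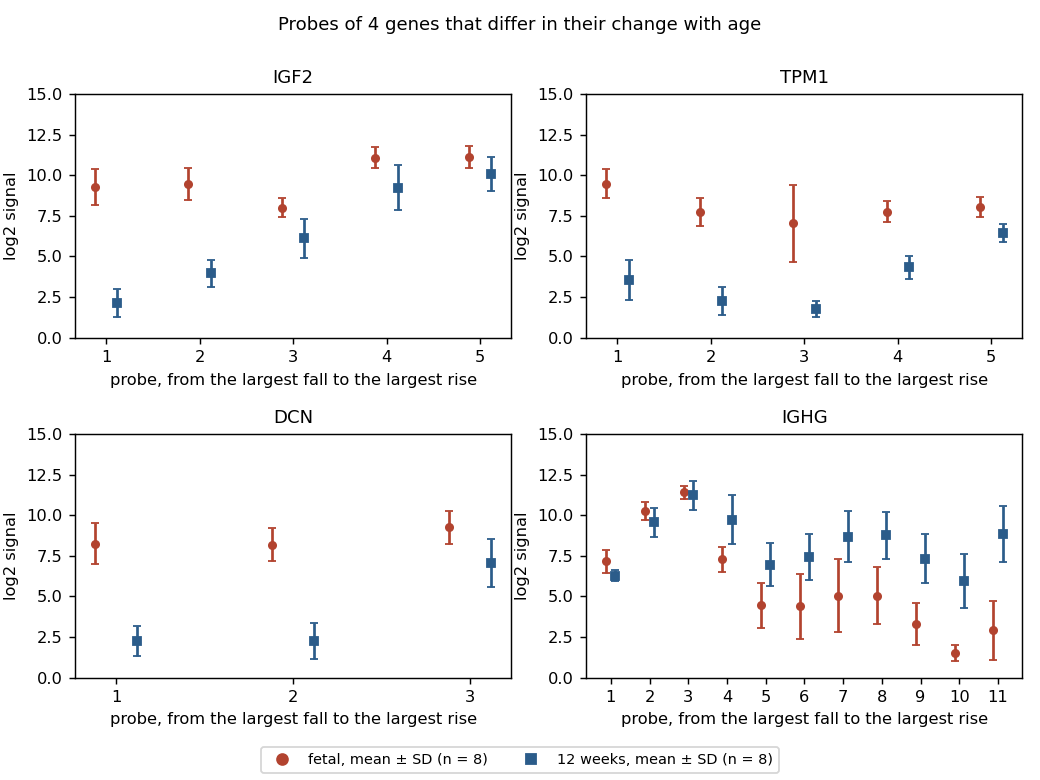
Mean log2 signal and SD of each tested probe of IGF2, TPM1, DCN and IGHG in fetal (circles) and 12-week (squares) blood, 8 arrays each, with the probes of a gene ordered by their change. For IGF2 the change ran from -7.13 to -1.04, for TPM1 from -5.92 to -1.64 and for IGHG from -0.88 to 5.93.

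Others among the 15 largest falls had mixed functions, and some were named by their description only. SLC16A10, a transporter of aromatic amino acids, went from 9.67 to 11.20 in the fetuses to 1.34 to 5.18 at 12 weeks, a 107-fold fall. EPDR1, an ependymin-related protein, fell 33-fold, the ubiquitin ligase MARCH3 28.1-fold and BSDC1 16.8-fold, all of them described and not named by the array. PHACTR3, a regulator of phosphatase and actin, fell 16.9-fold. None of these genes had overlapping values.

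**Figure D2:**
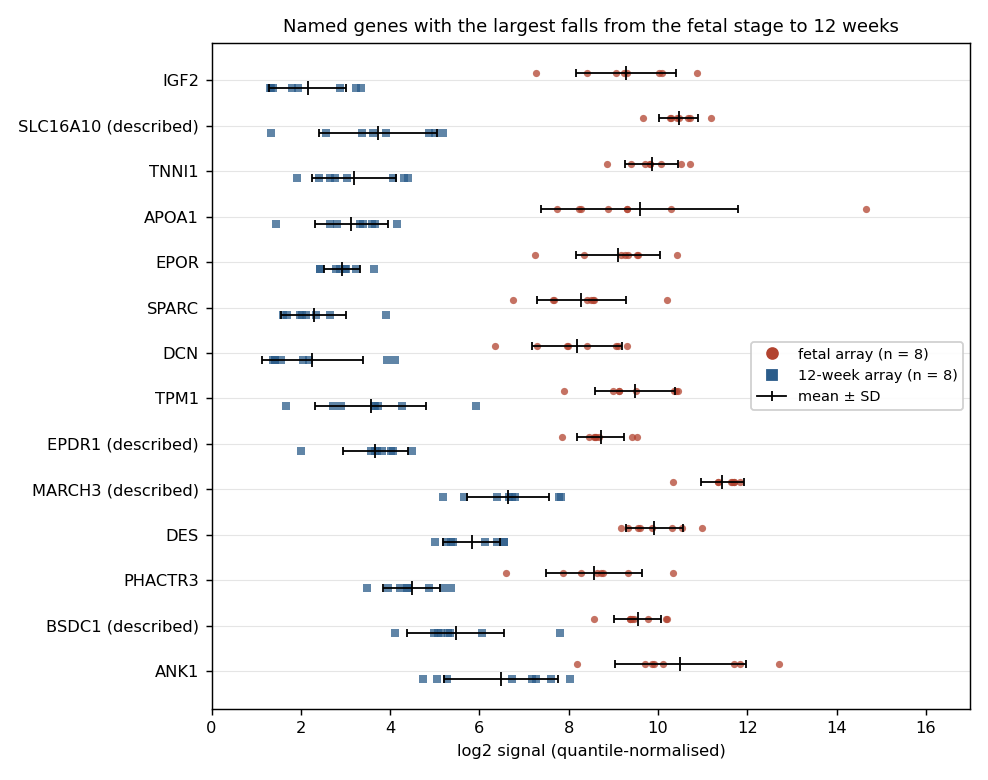
Log2 signal on each of 8 fetal arrays (circles) and 8 12-week arrays (squares) for 14 of the 15 named or described genes with the largest falls, with mean and SD as bars. For every gene shown the lowest fetal value lies above the highest 12-week value, and APOA1 in fetal male 2 (14.67) lies far above the other fetuses.

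Some plasma protein genes of the liver were also higher in fetal blood. Of 31 genes of the liver list on the array, 13 were tested, 7 fell and none rose, with a median change of -1.67. Of the 13, 7 were expressed at both ages, and 4 of these fell. A family formed from the array's names for apolipoproteins and plasma proteins went otherwise, with 3 of 10 tested genes up, 1 down and a median change of 0.04. In the liver list, 12 of the 13 tested genes fell after 75th percentile scaling. The summed signal of these 13 genes ranged from 24141 to 105591 in the fetuses and from 11673 to 40138 at 12 weeks. APOA1, the main apolipoprotein of HDL, was present on 8 fetal arrays and on 1 array at 12 weeks. Its fetal signals were 7.73 to 14.67 (median 9.10) and its 12-week signals 1.45 to 4.15 (median 3.36), an 87.9-fold fall (adjusted p = 2.01e-06). Without fetal male 2 the change of APOA1 was -5.73 in place of -6.46.

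SERPINA1, alpha-1-antitrypsin, was present on 7 fetal arrays and on 0 at 12 weeks, at least 55.7-fold lower (means 9.29 ± 3.89 and 2.19 ± 1.01 SD, n = 8, limma adjusted p = 0.00014). Without fetal male 2 its change was -6.45 in place of -7.10. In fetal male 3 it read 1.55, inside the 12-week range of 1.33 to 3.56. The transport protein APOC3 fell 5.62-fold, APOM 3.65-fold, coagulation factor F10 3.45-fold, ITIH2 3.18-fold and the retinol carrier RBP4 2.58-fold. The change of APOC3 was -2.11 in place of -2.49 without fetal male 2, and that of APOM -1.35 in place of -1.87. APOM missed the threshold after normexp background correction (adjusted p = 0.052). The defining genes ALB, AFP and TTR did not reach the share of arrays needed for testing. The brighter ALB probe was present on 4 fetal arrays, the probes of AFP, alpha-fetoprotein, on up to 4 and those of TTR on up to 3, and all of them on 0 arrays at 12 weeks. Over 14 probes of ALB, AFP, TTR, APOA1, APOC3 and SERPINA1, fetal male 2 and fetal females 1 and 2 had 12 present, while the other fetal arrays had 3 to 6 and the 12-week arrays 1 or 2. The part of liver RNA in the differences between the ages was not tested. Leaving out fetal male 2, 8855 probes were called, of which 3084 fell.

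**Figure D3:**
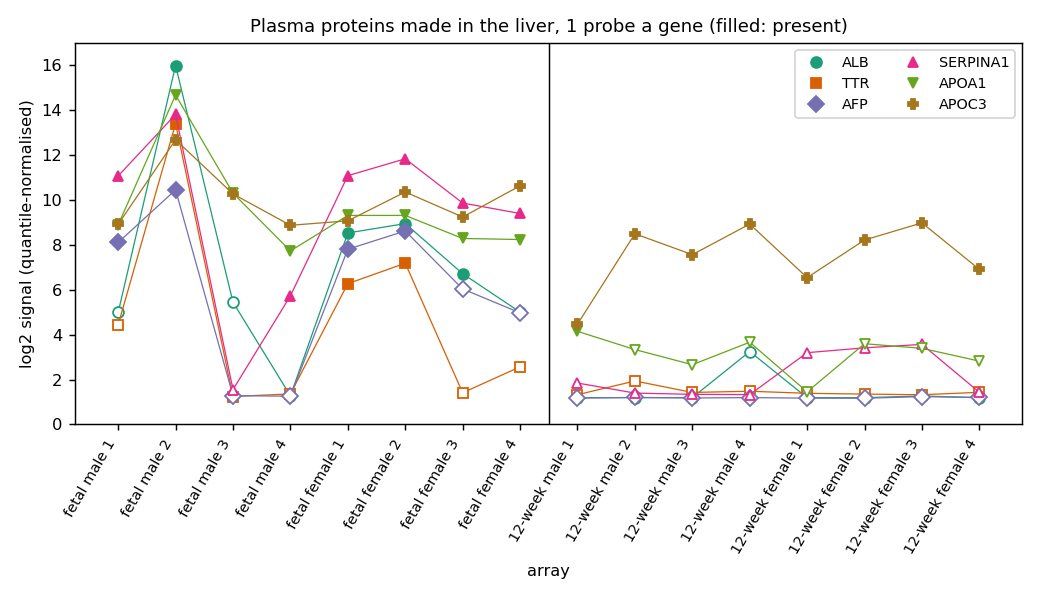
Log2 signal of 1 probe each of ALB, TTR, AFP, SERPINA1, APOA1 and APOC3 on every fetal (left) and 12-week (right) array, with filled symbols where the probe was present. All 6 genes were highest in fetal male 2, and ALB, TTR and AFP were present on none of the 12-week arrays.

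Endothelial and stromal genes gave a mixed account. Of 24 genes on the array 9 were tested, 4 fell and 2 rose, with a median change of -1.26, and 1 of them fell on scan day 2 alone. Of the 8 expressed at both ages 4 fell and 1 rose. Besides DCN, FN1 (fibronectin) fell 5.33-fold, TIMP3 3.58-fold and the tight junction protein CLDN5 2.9-fold. FN1 was highest in fetal male 2 at 12.57, without which its change was -1.79 in place of -2.41, and it missed the threshold on scan day 2 (adjusted p = 0.051). TIMP2, an inhibitor of metalloproteinases, rose 4.72-fold and the adhesion molecule ICAM2 6.41-fold (2 fetal arrays above background). The endothelial genes KDR, FLT1, TEK and TIE1 and the collagens COL1A1 and COL1A2 were present on 0 arrays of either age.

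Of the cell cycle genes 9 were tested, of which 4 fell and 1 rose, with a median change of -0.91. Of these, 8 were expressed at both ages, of which 3 fell and 1 rose, near the 40.5% and 21.3% of all such probes. CCNB1, the cyclin of mitosis, fell from 5.83 to 9.58 in the fetuses to 2.79 to 5.51 at 12 weeks, 8.84-fold and without overlap. The topoisomerase TOP2A fell 5.13-fold, the mitotic activator CDC20 3.88-fold and CCND3, a cyclin of the first growth phase, 2.73-fold. CCND2, its relative, rose 8.26-fold on 1 probe, and its other probes changed by 2.06 (called) and 0.93 (adjusted p = 0.11). PCNA (-0.91), BIRC5 (-0.59), PTTG1 (-0.16) and STMN1 (0.17) did not pass the test. Of 3 histone genes 2 fell. GADD45A, a growth arrest gene induced by DNA damage, fell 9.16-fold from 9.87 ± 0.64 to 6.67 ± 0.87 (SD, n = 8).

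Most tested genes of neutrophils, monocytes, T cells, NK cells and B cells were higher at 12 weeks. The median summed signal of the tested genes rose for monocytes (4720 to 26329), T cells (1623 to 8084) and B cells (5944 to 12817). It was lower at 12 weeks for neutrophils (72570 to 54447) and for NK and cytotoxic cells (54589 to 50777). These are sums of linear signal, in which the brightest gene weighs most. That gene was ARG1 for neutrophils and GNLY for NK and cytotoxic cells, so these sums say little about the other members. The ranges of the 2 ages overlapped for neutrophils, NK cells and B cells. The pan-leukocyte phosphatase PTPRC (CD45) had fetal signals of 1.19 to 5.81 (median 1.26) and 12-week signals of 7.36 to 9.12 (median 8.63). The rise was 46.7-fold (adjusted p = 8.05e-06), but only 2 fetal arrays measured this probe above background. Its other 2 probes, above background on no fetal array, were at least 3.39-fold and 2.51-fold higher at 12 weeks. In all, 1599 tested probes were above background on no fetal array, and 22 on no 12-week array. For such probes the fold is given as a lower bound, against the faintest signal that counted as above background. An adjusted p printed beside a bound is limma's for the change in mean log2 signal, readings below background included, and not for the bound.

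Of 11 neutrophil genes on the array 10 were tested, 7 rose and 1 fell, with a median change of 3.53. Of the 10, 4 were expressed at both ages, and 2 of these rose. CXCR2, the receptor that draws neutrophils to interleukin 8, had fetal signals of 2.05 to 7.89 (median 6.11) and 12-week signals of 10.85 to 12.18 (median 11.20), a 47.1-fold rise with 5 fetal arrays above background. NCF1, a subunit of the NADPH oxidase, was above background on no fetal array and at least 5.01-fold higher at 12 weeks (means 2.61 and 8.03, adjusted p = 3.02e-07). Its membrane partner CYBA rose 7.31-fold, from 9.36 to 10.14 up to 11.11 to 13.25, whereas its fainter probe fell by 1.41 on the log2 scale. The secreted lectin CHI3L1 was at least 5.96-fold higher, the integrin chain ITGB2 rose 18.2-fold (4 fetal arrays above background; its other probe changed by -0.49, not called) and the protease MMP9 2.21-fold. ARG1, arginase, fell 2.47-fold (15.38 ± 0.23 and 14.08 ± 0.64 SD, n = 8). LTF and VNN1 changed by 0.13 and -0.63 and did not pass the test.

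Of 23 monocyte and macrophage genes on the array 15 were tested, 11 rose and none fell, with a median change of 1.44. Of these, 8 were expressed at both ages, and 4 of the 8 rose. FCGR3A, the Fc receptor CD16, was present on every array and rose 17.1-fold, from 7.01 to 10.57 (median 10.12) up to 12.46 to 14.06 (median 13.75). LGALS3, galectin-3, rose 24.8-fold, from 6.40 ± 0.76 to 11.03 ± 0.43 (SD, n = 8), with 5 fetal arrays above background. FCN1, ficolin, rose 30.3-fold, though a single fetal array measured it above background, and the inhibitory receptor SIRPA 14.6-fold, with likewise 1 fetal array. LYZ, lysozyme, rose 21.2-fold, with fetal values from 1.37 (fetal male 3) to 9.59. CD14, the endotoxin co-receptor, rose 2.18-fold. FCGR2B, an inhibitory Fc receptor, rose 19.8-fold, and by 5.18 in place of 4.31 on the log2 scale without fetal male 2, the 1 fetus where it was present. After 75th percentile scaling its change was 2.58. CD68, CTSD, CTSB and CD36 did not pass the test. The rise of the scavenger receptor CD163 (log2 change 1.60, adjusted p = 0.0423) was lost under 75th percentile scaling (0.69, adjusted p = 0.17).

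**Figure D4:**
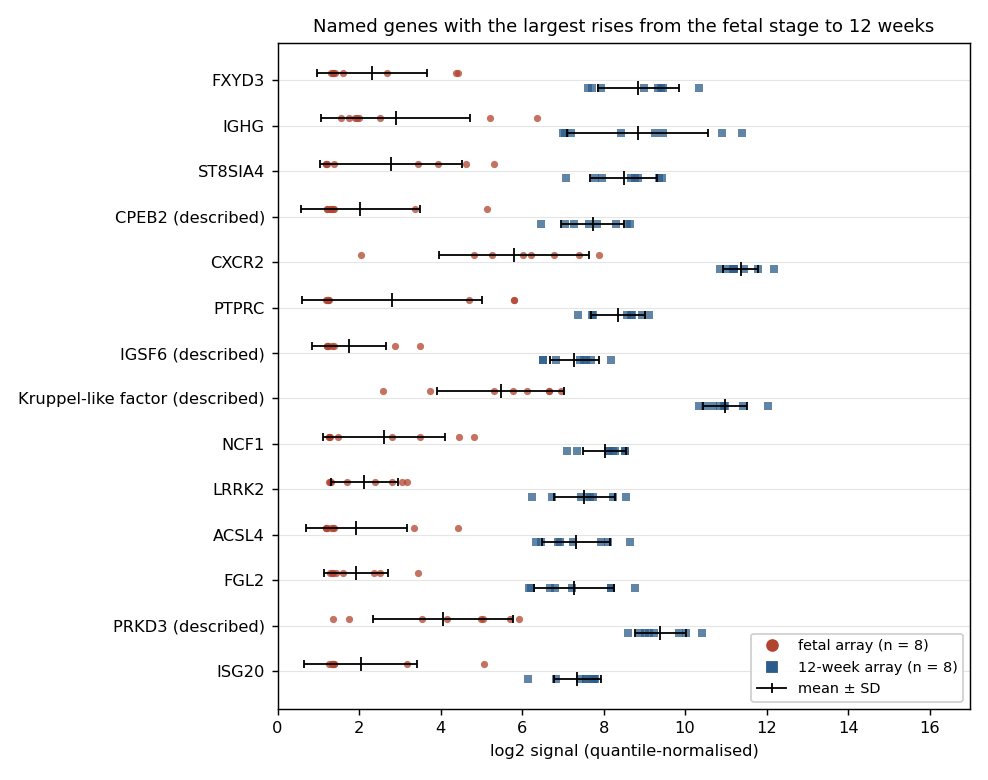
Log2 signal on each of 8 fetal arrays (circles) and 8 12-week arrays (squares) for 14 of the 15 named or described genes with the largest rises, with mean and SD as bars. All 12-week values lie above all fetal values of the same gene, and most fetal values of FXYD3, IGSF6 and FGL2 lie near 1 to 2, the floor of the scale.

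Of the T cell genes 13 were tested, of which 11 rose and none fell, with a median change of 3.42. Of the 13, 10 entered the test through their expression at 12 weeks alone, and of the remaining 3 CD3G rose. CD3G rose 7.17-fold and CD3D 12.3-fold, both chains of the T cell receptor complex, whereas the third chain CD3E changed by -0.48 and CD2 by -0.64 without passing the test. CD3D had fetal signals of 1.30 to 10.82 (median 7.17) and 12-week signals of 9.25 to 11.49 (median 10.89), so the ages overlapped. The receptor chain genes TCRG and TCRA rose 17.4-fold and 11.3-fold, with 3 and 1 fetal arrays above background. TCRG, the gamma chain, was at 1.42 to 8.51 in the fetuses and at 8.67 to 10.28 at 12 weeks, without overlap. GATA3, a transcription factor of T helper cells, rose 20.9-fold on 1 probe (2 fetal arrays above background), while its other probe, with 4, changed by 1.27 and did not pass the test (adjusted p = 0.0747). The coreceptor chains CD8A and CD8B rose 10.7-fold (2 fetal arrays above background) and 4.5-fold (3 arrays), and the homing receptor CCR7 rose 10.8-fold (5 arrays).

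Of the genes of NK and cytotoxic cells 7 were tested, 6 rose and none fell. Of the 4 expressed at both ages 3 rose. The signaling adaptors TYROBP and HCST rose 17.4-fold and 14.5-fold, and both were present on 7 fetal arrays. TYROBP went from 4.65 to 8.03 (median 7.07) up to 9.70 to 11.48 (median 11.07). KLRK1, the receptor NKG2D, rose 9.71-fold (3 fetal arrays) and the chemokine CCL5, above background on no fetal array, was at least 1.13-fold higher. GNLY, which codes for a granule protein that kills microbes, changed by -0.34 (15.72 ± 0.13 and 15.38 ± 0.36 SD, n = 8, adjusted p = 0.218).

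Among B cell genes, 3 of 5 tested rose and none fell, and of the 3 expressed at both ages 1 rose. IGHM, the heavy chain of IgM, was present on every array, at 7.44 to 9.13 (median 8.59) in the fetuses and 10.54 to 14.34 (median 13.07) at 12 weeks. It rose 23.5-fold (adjusted p = 3.71e-07) with no overlap. CD72, a B cell surface protein, changed by 1.47 with 1 fetal array above background, and did not pass the test on scan day 2 alone (adjusted p = 0.079), where 1 gene of the list rose and 1 fell. The 11 tested probes for IgG heavy chains disagreed, with changes from -0.88 to 5.93. The probe that rose most went from 1.55 to 6.35 in the fetuses, present on 1 array, to 6.99 to 11.39 at 12 weeks, a 61.1-fold rise. The IgG probe with the highest mean signal, which stood for the gene in the list, changed by -0.18 (11.41 ± 0.39 and 11.23 ± 0.88, adjusted p = 0.674). Immunoglobulin genes share sequence and are rearranged, so which transcript each probe read is uncertain. The IgG probe with the largest rise is shown as the sequence behind that value.
IGHG A_72_P359783: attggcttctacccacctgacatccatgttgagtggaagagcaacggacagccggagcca

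Most genes of antigen presentation that rose were expressed at both ages. Of 12 genes of the MHC class I pathway tested, 10 rose and none fell, with a median change of 2.15. Of the 12, 11 were expressed at both ages, and 9 of these rose, where 21.3% of such probes rose. The class I heavy chain genes SLA-1, SLA-2 and SLA-3 rose 4.8-fold, 11.2-fold and 10.4-fold. SLA-1 was at 11.76 to 13.60 (median 13.03) in the fetuses and at 14.02 to 16.13 (median 15.12) at 12 weeks, SLA-2 at 8.18 to 10.50 and 11.37 to 13.11, and SLA-3 at 8.76 to 10.83 and 11.99 to 13.70. None of the 3 overlapped between ages. All 10 tested probes of SLA-1 rose, by 2.16 to 3.89, as did all 4 of SLA-2 (2.14 to 3.48) and all 4 of SLA-3 (2.95 to 3.88). The class I genes are nearly identical in long stretches and differ between haplotypes, so the signal cannot be assigned to single genes with certainty.

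The nonclassical gene SLA-7 rose 2.22-fold, which did not hold after 75th percentile scaling (adjusted p = 0.11) or on scan day 2 (adjusted p = 0.13), and SLA-6 was present on 0 arrays. Of the machinery that makes and moves peptides, the immunoproteasome subunits PSMB9 and PSMB10 rose 6.08-fold and 3.79-fold, the proteasome activators PSME1 and PSME2 4.52-fold and 4.36-fold, and the peptide transporter chain TAP1 16-fold (1 fetal array above background). PSMB9 went from 7.87 to 9.36 (median 9.07) up to 10.74 to 11.75 (median 11.50). PSMB8 (0.53) and TAP2 (-0.88) did not pass the test.

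Of 6 class II genes 5 rose and none fell, with a median change of 2.54, and of the 5 expressed at both ages 4 rose. SLA-DRA, the alpha chain of the DR molecule, was at 8.37 to 9.98 (median 9.35) in the fetuses and 10.79 to 12.54 (median 11.71) at 12 weeks, a 5.02-fold rise (adjusted p = 8.77e-06). SLA-DMA, which loads peptide on class II, rose 6.94-fold, SLA-DQB1 6.71-fold and SLA-DRB1 4.03-fold, all without overlap. The probe of SLA-DQA was present on 1 fetal and 2 12-week arrays and was not tested. CD74, the chaperone of class II, changed by -0.03 (adjusted p = 0.96), so the members of the list did not change alike.

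Of the interferon-stimulated genes 18 were tested, of which 12 rose and 1 fell, with a median change of 2.75. Of the 7 expressed at both ages, 3 rose and 1 fell. RSAD2, viperin, had fetal signals between 1.25 and 1.36, below background on every array, and 12-week signals of 5.10 to 7.99 (median 6.23). It was at least 1.55-fold higher (means 1.32 ± 0.04 and 6.33 ± 1.11 SD, adjusted p = 2.67e-08). The exonuclease ISG20 was at least 3.13-fold higher. MX1, an antiviral GTPase, rose 43.1-fold but varied widely among the fetuses, from 1.20 to 9.23, with 3 of the 8 present. The kinase EIF2AK2 (PKR) rose 18.9-fold, with 1 fetal array above background.

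Of the genes measured at both ages, OAS1 rose 3.04-fold from 8.98 ± 0.59 to 10.58 ± 0.38 (SD, n = 8). IRF9, a transcription factor of the interferon response, fell 2.52-fold, and IRF7 (-0.64), STAT2 (-0.09) and IRF3 (0.30) did not pass the test. The receptor chains themselves rose. IFNGR2 rose 34.8-fold (1 fetal array above background), IFNAR1 was at least 1.29-fold and IFNAR2 at least 1.01-fold higher, the fetal arrays being below background. IFNAR1 was at 1.17 to 4.53 in the fetuses and 5.72 to 6.42 at 12 weeks. Of the kinases bound to these receptors, JAK1 rose 8.3-fold, from 8.16 ± 1.20 to 11.21 ± 0.57, and TYK2 fell 2.16-fold.

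Toll-like receptors, which sense microbial molecules, were near background in the fetuses. Of 15 genes of these receptors and their signaling tested, 13 rose and none fell, with a median change of 2.54, but 12 of the 15 were expressed at 12 weeks only. TLR2 was above background on no fetal array and at least 2.94-fold higher at 12 weeks (3.06 ± 1.21 and 7.26 ± 0.66 SD, adjusted p = 1.38e-06), TLR4 at least 1.74-fold and TLR7 at least 1.44-fold. TLR1 rose 5.83-fold, with 3 fetal arrays above background. TLR10 changed by 1.93 with none, and its bound gives no fold. TLR3, TLR6, TLR8 and TLR9 were present on at most 1 array of an age and were not tested. CASP1, which activates interleukin 1, rose 31.6-fold, from 1.32 to 5.90 (3 fetal arrays above background) up to 7.67 to 9.56. NFKB1 rose 10.3-fold with 1 fetal array above background, and NFKBIA, the inhibitor of this factor, 4.62-fold with all 8. The adaptor MYD88 was present on every array (15.30 ± 0.39 and 14.76 ± 0.94) and changed by -0.54 without passing the test. The median summed signal of the 15 genes was 45756 in the fetuses and 32329 at 12 weeks, with overlapping ranges. MYD88, the brightest of them, made up most of the fetal sum.

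**Figure D5:**
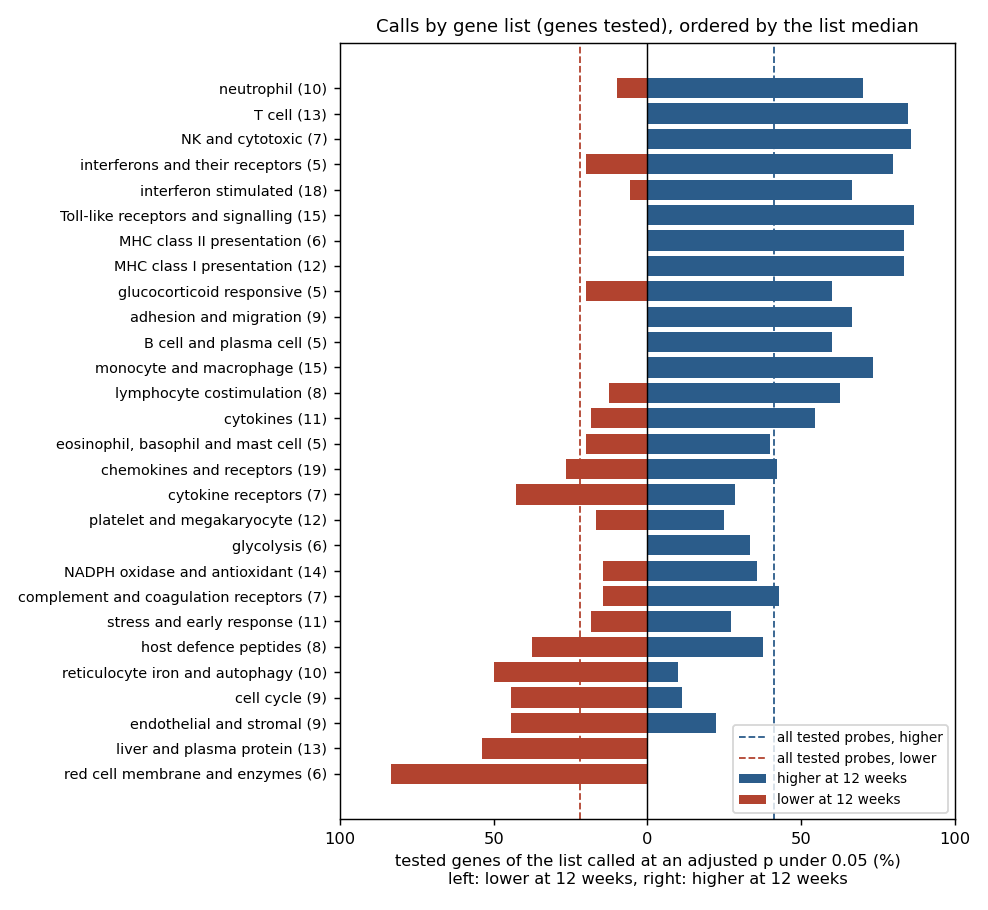
Share of the tested genes of each list (number tested in brackets) that were higher (right) or lower (left) at 12 weeks at an adjusted p under 0.05, ordered by median change, with dashed lines for all tested probes (41.2% and 21.9%). Leukocyte, interferon and antigen presentation lists lie at the top, and red cell, liver and stromal lists at the bottom. The dashed lines do not allow for the filter, which bears on this order. Of probes expressed at 12 weeks only, 55.9% rose and 7.53% fell, and of those expressed at both ages 21.3% and 40.5%. Expressed at 12 weeks only were 10 of 13 T cell, 1 of 12 MHC class I and 1 of 6 red cell genes.

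Cytokines and chemokines were divided. Of 11 cytokines tested, 6 rose and 2 fell, and of the 5 expressed at both ages 1 rose and 2 fell. IL16, which attracts T cells, rose 7.02-fold from 8.34 ± 0.99 to 11.15 ± 0.69, and IL18, which CASP1 cleaves, rose 11.3-fold with 1 fetal array above background. TNFSF13B, the B cell survival factor BAFF, was below background in every fetus (1.28 to 1.40) and at 3.54 to 5.48 at 12 weeks, a change of 3.18 whose bound gives no fold. It was 1.05 after 75th percentile scaling and 0.42 after normexp background correction, where it missed the threshold (adjusted p = 0.051). CSF3, the growth factor of granulocytes, fell 4.57-fold, and IGF1 fell as given above. TNF (-0.63) and MIF (-0.50) did not pass the test.

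Of the chemokines and their receptors 19 were tested, of which 8 rose and 5 fell, near the background of 41.2% and 21.9%. Besides CXCR2, the receptor CCR1 of monocytes rose 13.5-fold, from 4.76 to 8.88 (median 7.55) up to 10.14 to 11.70 (median 11.17). All 5 that fell, CCL19 (3.59-fold), CCL25 (3.44-fold), CXCR3 (2.33-fold), XCR1 (2.29-fold) and CCR9 (2.11-fold), were expressed at both ages, and 2 of the list fell on scan day 2 alone. XCR1 did not pass the test on scan day 2 (log2 change -0.87, adjusted p = 0.23). It also lost its call when 1 of several single arrays was left out (adjusted p up to 0.059). CCL25 and CCR9 are the ligand and receptor that guide cells to the thymus and gut. Among 7 cytokine receptors 2 rose and 3 fell, and besides EPOR, IL4R fell 2.8-fold and LIFR 1.93-fold, while TNFRSF1A rose 3.22-fold. The other probe of IL4R rose, from 6.70 ± 1.68 to 9.70 ± 0.72 (SD, n = 8), so no direction can be given for that gene.

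Adhesion molecules rose in 6 of 9 tested, and none fell, with 2 of the 4 expressed at both ages up. Of 8 costimulatory genes 5 rose and 1 fell (2 and 1 of the 4 expressed at both ages), among them CD40, which rose 3.33-fold from 7.97 to 9.11 up to 9.57 to 10.66, CD47, the signal that restrains phagocytes, at 5.36-fold (4 fetal arrays above background), and the T cell molecule ICOS at 4.89-fold (2 arrays). CD58 fell 2.57-fold. Complement genes split too. CFD, factor D of the alternative pathway, rose 17.2-fold, from 7.31 to 10.08 (median 9.53) up to 11.68 to 14.34 (median 13.68), whereas its fainter probe fell by 1.65 on the log2 scale. The complement inhibitors CD55 and CD46 rose 6.36-fold and 6.61-fold, CD46 with 1 fetal array above background. C5AR1, the receptor of the fragment C5a, fell 2.52-fold.

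Host defence peptides were as divided, with 3 of 8 up and 3 down. DEFB1, a beta-defensin, rose 8.43-fold (2 fetal arrays above background) and the protease inhibitor SLPI 3.45-fold (4 arrays). PGLYRP1, which binds bacterial peptidoglycan, fell 4.14-fold from 9.87 ± 0.76 to 7.82 ± 1.43, and the protegrin NPG4 fell 3.69-fold. Protegrins are made by neutrophil precursors. Of 5 genes of eosinophils, basophils and mast cells, ALOX15, a lipoxygenase of eosinophils, rose 11-fold without overlap, HDC, which makes histamine, rose 4.03-fold (1 fetal array above background) and the transcription factor GATA2 fell 2.14-fold. GATA2 did not pass the test on scan day 2 (adjusted p = 0.15) or without the 3 fetal arrays with the fewest present probes (adjusted p = 0.089). It also lost its call when 1 of several single arrays was left out (adjusted p up to 0.087).

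Platelet genes changed little as a group. Of 12 tested, 3 rose and 2 fell, and the median change of 0.58 was close to the 0.66 of all tested probes. PF4 (0.69), PPBP (0.47) and ITGA2B (-0.26), which define the lineage, were present on all 16 arrays and did not pass the test. SELP, P-selectin, rose 2.52-fold, CLU 3.57-fold and CD9 2.27-fold. The 2 that fell were SPARC and TPM1, which other tissues make as well.

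Glucocorticoid-responsive and stress genes gave single changes. NR3C1, the glucocorticoid receptor, rose 16.7-fold from 1.26 to 5.49 (1 fetal array above background) up to 6.79 to 8.32. HSD11B1, the enzyme that regenerates cortisol, fell 11.5-fold from 8.94 ± 1.62 to 5.41 ± 0.71 without overlap, and its change was -3.11 in place of -3.53 without fetal male 2. ANXA1, a mediator of glucocorticoid action, rose 7.36-fold but missed the threshold on scan day 2 (adjusted p = 0.051). Of 11 stress and early response genes 3 rose and 2 fell. Besides GADD45A, the chaperone cofactor DNAJB1 fell 3.41-fold on 1 of its 2 probes, and HSPB1 rose 2.88-fold. JUN (-0.17), BTG2 (-0.19) and HSPA5 (0.12) did not pass the test, and MYC (1.82) lost its call without the 3 fetal arrays with the fewest present probes (adjusted p = 0.17).

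Other large rises fell outside these lists. FXYD3, a small regulator of ion pumps, was the largest, above background on no fetal array (1.32 to 4.42) and on all at 12 weeks (7.62 to 10.35), at least 8.87-fold higher. ST8SIA4, which builds polysialic acid, rose 52.3-fold with 2 fetal arrays above background. The kinase LRRK2 was at least 3.53-fold higher. ACSL4, which activates arachidonic acid, was at least 3.07-fold higher on its probe with the largest rise, and its other 4 probes, above background on 3 to 7 fetal arrays, rose by 1.39 to 3.30 on the log2 scale. FGL2 was likewise at least 2.99-fold higher on 1 probe, and its other probes, with 8 and 6 fetal arrays above background, rose by 2.78 and 3.48. By description only, CPEB2, which controls translation, was at least 4.08-fold and IGSF6 at least 2.98-fold higher, while a Kruppel-like factor rose 45-fold and the kinase PRKD3 40.3-fold.

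Housekeeping families were divided. Of 52 cytosolic ribosomal protein genes tested, 16 rose and 7 fell, with a median change of 0.33 against 0.66 over all tested probes; without the presence filter the list lay 0.26 above the median of all probes. Of 11 ATP synthase subunits 6 fell and 3 rose, and of 14 chaperones 6 fell and 1 rose. Over all tested probes 21.9% fell and 41.2% rose, and among those expressed at both ages 40.5% and 21.3%. The families were not split by expression, so these counts may not differ from that background. Proteasome subunits were split, with 6 of 12 up and 4 down. Of 6 glycolysis genes, LDHB and PGAM1 rose 2.82-fold and 2.4-fold (PGAM1 missed the threshold on scan day 2, adjusted p = 0.057) and 4 did not pass the test. Among genes against oxidative damage, SOD2, the mitochondrial superoxide dismutase, rose 8.8-fold while GPX1 (0.03) and SOD1 (0.18) did not pass the test.

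Both sexes were present at both ages, so a difference in the age step between females and males could be tested. At the fetal stage sex and scan day coincided and cannot be told apart. At an adjusted p under 0.05, 6 probes differed, 0.044% of those tested, and 1130 did so at an unadjusted p under 0.05. A name could be given to 2 of them. The probe of 18S ribosomal RNA was at 11.20 to 12.17 in the fetal males and at 14.71 to 15.81 in the fetal females, against 12.52 ± 0.79 and 12.26 ± 0.19 in the males and females of 12 weeks (SD, n = 4). Its age step was 3.91 lower in females (adjusted p = 0.019). The second probe of ANXA1 was at 1.31 to 1.42 in the fetal males, present in none, and at 3.44 to 6.76 in the fetal females, present in 2 (adjusted p = 0.028). Among sex chromosome genes, KDM5C changed by -0.16 with age (adjusted p = 0.746) and by 0.29 when arrays were scaled to the median of probes present on all 16, so it had no settled direction. UTY was present on 1 array, fetal male 1, and so did not check the labels of the other males.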

How the data were processed

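Whole blood RNA was measured on 1-color Agilent porcine arrays, 8 from fetuses and 8 from 12-week-old pigs. The deposited intensity values are per-probe signals from Agilent Feature Extraction 9.5.3.1, background-subtracted by the scanner software; the deposited series table holds log2 values that the authors quantile-normalized. Processed intensities of all 31 arrays of the series were quantile-normalized together and taken to log2, with control and outlier spots left out. Ages were then compared on the 16 arrays with limma 3.58.1 (R 4.3.3, Benjamini-Hochberg, threshold 0.05), checked on simulated data. The signals given therefore also depend on the arrays from pigs older than 12 weeks. A probe was tested when present on more than 75% of arrays of an age. In a list each gene was read from its probe of highest mean signal, and lists with 3 or more tested genes are described. Named are the 15 largest non-overlapping changes in each direction among probes present on all arrays of the higher age, up to 4 largest calls per list, all globin, SLA, interferon receptor, Toll-like receptor and sex chromosome genes, and the 3 named probes with the smallest p for age by sex. Other genes, and the printed probe sequences, were chosen after their values were seen, and the members and lists with earlier results of these data known. Gene names are those of the array design, updated through RefSeq accessions, of which 1995 of 2103 matched. Other symbols came from an assembled sequence shared with a named probe (202 probes), synonyms (135), gene IDs (120) or the described protein (14). Symbols were given by hand from the description for 44 probes and from the design's name for 38. The number of arrays limits the precision. P-values measure the spread between arrays; litters are unknown. Alternatives were other scalings, background correction, presence filters, scan date and slide as blocks, single scan dates and leaving out arrays. Some genes that the rule names are not reported here, and no reference genome was used.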

Additional observations from a re-analysis of the deposited data

Results flagged for a closer look

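Among 298 groups of 8 arrays examined for a lone high or low value by Dixon's criterion, 25 stood out, where chance flags about 1 in 20. Fetal male 2 stood apart in APOA1 (14.67), APOC3 (12.68), FCGR2B (8.39), HAMP (10.37), where it was the highest fetus, and in the described MARCH3 (10.34), where it was the lowest. Fetal male 3 was lowest in CD3D (1.30), HCST (3.13), LYZ (1.37) and TLR1 (1.37). Fetal male 4 was lowest in CFD (7.31) and highest in IFNAR1 (4.53) and PGAM1 (11.52), fetal female 2 was highest in SLA-6 (3.25), which was present on no array, and fetal male 1 in UTY (7.64). At 12 weeks, female 2 was lowest in CCL5 (3.01), CCNB1 (2.79), CD3D (9.25), GATA3 (6.21) and KLF3 (9.53). Female 1 was lowest in GADD45A (4.78) and highest in TLR8 (3.78), female 3 lowest in TLR1 (6.61) and highest in TPM1 (7.51), female 4 highest in SPARC (3.91), and male 2 lowest in the described EPDR1 (2.01). All values are log2 signals.

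The age step, 12 weeks minus fetal stage, differed between the sexes at 6 probes by limma's interaction term. Female minus male differences were -3.91 for 18S ribosomal RNA and -5.15 for ANXA1. For 4 probes without a name they were -6.11 (A_72_P426064), -4.83 (A_72_P365048), -3.90 (A_72_P327493) and -3.76 (A_72_P000506). In the fetuses, sex and the day of scanning cannot be told apart.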

How the results depend on the processing

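The number of probes called (8611) was between 7583 and 9934 under the other scalings, the background correction, the deposited values, the fit of all 31 arrays, scan day 2 alone and the scan date as a random block, 6997 with the slide as a random block and 7198 with the scan date as a fixed block. The methods' t-test gave 9068 at their unadjusted threshold of 0.05 and 8426 after Benjamini-Hochberg adjustment. Limited to probes present on all 16 arrays it was 2911 (981 higher, 1930 lower at 12 weeks), where 4258 probes were tested, and without the presence filter 12038, of which 5216 were lower. Scaling to the median of the probes present on all 16 arrays and leaving out the 3 fetal arrays with the fewest present probes were chosen after seeing the data; they gave 9386 and 8049. Leaving out each array in turn gave 7826 to 8884 calls, 5230 to 5871 higher and 2586 to 3153 lower, and 131 to 137 of the named genes. The age step by sex was called at 1 probe after 75th percentile scaling, 3 after normexp correction, 14 on the deposited values, 2 among probes present on all arrays and 341 with all 31 arrays, and at 2 to 101 when 1 array was left out, with 101 without fetal male 4, 26 without fetal female 1, 14 without fetal male 1 and 10 without fetal male 2. It was 2 without fetal female 2, fetal female 3 or 12-week female 1, and 3 without 12-week male 2.

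Probes expressed at both ages numbered 11123 when only the positive and significant mark was asked for, and those expressed at the fetal stage only 373, or 218 at more than 50% of arrays. Without 1 array, the latter ranged from 102 to 223 (220 without fetal male 1, 223 without fetal male 3), those expressed at both ages from 5590 to 6533 and at 12 weeks only from 6984 to 8841. Relative to the median of all tested probes, list medians turned sign without the filter for erythroid transcription factors (0.66), platelet genes (0.69), cytokines (-0.10), antioxidant genes (0.33), glycolysis (0.50), stress genes (0.14), cytosolic (0.26) and mitochondrial (0.58) ribosomal proteins, cytochrome c oxidase and bc1 subunits (0.54), splicing factors (0.60), tubulins (0.16), ubiquitin conjugation (0.35), immunoglobulin chains (-0.0090) and T cell receptor chains (-0.50). On scan day 2 they did for cytokines (-0.79), cytokine receptors (-0.80) and complement (1.17), and for translation factors (-0.11) after either other scaling. KDM5C turned to 0.29 at the scaling to probes present on all arrays and ranged from -0.29 to 0.0047 when 1 array was left out, turning sign without fetal male 3. The cause was not tested. With the replicate number as a block 8719 probes were called; same-numbered arrays did not deviate together (correlations -0.14 to 0.25), so the numbers give no pairing.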
